A study of Mus musculus with 5 samples.

Results

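The nuclear genes of oxidative phosphorylation were followed in RNA sequencing of sorted cells from the developing mouse retina. They were taken by symbol (the Nduf a, b, c, s and v families, Sdha to Sdhd, Uqcr, Cox4 to Cox8 and Atp5), where the mean of the 5 libraries reached 10 and the symbol was not that of a pseudogene. The symbols matched 96 rows, of which 92 were kept from a table of 24594 genes. Of the 4 rows left out, Ndufs5-ps carried a pseudogene symbol, and Ndufb11b, Cox8b and Cox8c lay under the minimum, with means of 8.04, 1.60 and 0 normalised reads. The kept gene nearest to that minimum was Cox6a2, with a mean of 11.2.

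Per the labels, 3 libraries came from retinas given a CAG-Zfp292 plasmid (labelled Zfp292-OE) and 2 from retinas given CAG-GFP (control). Both plasmids were introduced by electroporation in living pups at postnatal day 0, and CAG is a strong promoter active in most cell types. Tissue was taken 4 days after that in both groups, and cells positive for GFP were sorted from it, labelled RPC (retinal progenitor cells). The strain and the number of pups behind a library are not stated, and neither is how cells given the Zfp292 plasmid came to carry GFP. Since no label says that libraries came from separate animals, p-values reflect the spread among these libraries alone, and that spread may be technical.

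Oxidative phosphorylation couples the oxidation of NADH and succinate in the inner mitochondrial membrane to the synthesis of ATP. Complexes I and II feed electrons through ubiquinone to complex III, cytochrome c carries them on to complex IV, which reduces oxygen, and ATP synthase (complex V) runs on the proton gradient so built. Most subunits are encoded in the nucleus and imported. The genes of the mitochondrial genome were not analysed here. In the retina, photoreceptors are known for densely packed mitochondria and proliferating progenitors for active glycolysis.

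The libraries held 103096224 to 137683716 reads assigned to genes. Zfp292, which encodes a zinc finger protein, had 14631, 13197 and 15534 normalised reads in libraries labelled Zfp292-OE and 13288 and 14756 in control libraries. The groups overlapped (log2 fold change 0.043, SE 0.14, limma adjusted p = 0.87), so every direction below is that of the labels. Against the labelled cell type, the 11 progenitor markers were all detected and summed to 305177 to 359395 normalised reads in libraries labelled Zfp292-OE and 217456 to 240966 in control libraries. Of these 5 rose, 1 fell and 5 did not pass in limma, and their median log2 fold change was 0.27, or 0.057 with equal totals. The 13 rod markers summed to 208384 to 233538 normalised reads in libraries labelled Zfp292-OE and 770107 to 898385 in control libraries, and all 13 fell, as limma called them. The 10 mitotic markers summed to 158969 to 314997 normalised reads in libraries labelled Zfp292-OE and 35352 to 41915 in control libraries, and all 10 rose. In such samples, fewer cells of a type and less RNA per cell cannot be told apart, and the part of these cell types in the results below was not tested.

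Of the 92 genes, 5 rose in the libraries labelled Zfp292-OE, 0 fell and 87 did not pass, at a limma adjusted p below 0.05. Those that rose were Ndufa4l2, Sdhb, Sdhc, Cox4i2 and Atp5e, by 1.42- to 1.72-fold. Among all 16316 tested genes 17.4% were called, 10% higher and 7.38% lower, and the members' share was 5.43%. At an unadjusted limma p below 0.05, 25 members were higher and 0 lower, while 32.8% of all tested genes passed in either direction. This one-sided count depended on the scaling. With equal totals 8 members passed at that level, 5 of them lower, and after quantile normalization 11 passed, 9 of them lower. On whole reads recovered from the table, edgeR called 3 members higher and 0 lower (background 8.28% higher), and DESeq2 called 13 higher and 0 lower (background 14.2% higher).

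The median log2 fold change of the 92 genes was 0.20, against -0.058 for all tested genes. It turned to -0.016 with libraries scaled to equal totals, where all tested genes had a median of -0.27, and to -0.073 after quantile normalization, where all tested genes had -0.018. The members' median thus stood above that of all tested genes by 0.26 as deposited and by 0.25 with equal totals, and after quantile normalization the difference was -0.055. The count of calls depended on single libraries. It was 0 without control library 1 and 0 without control library 2, where limma called 1 gene of the whole table in each case. It was 1 without library 1 or library 2 labelled Zfp292-OE, and 8 without library 3.

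**Figure D1:**
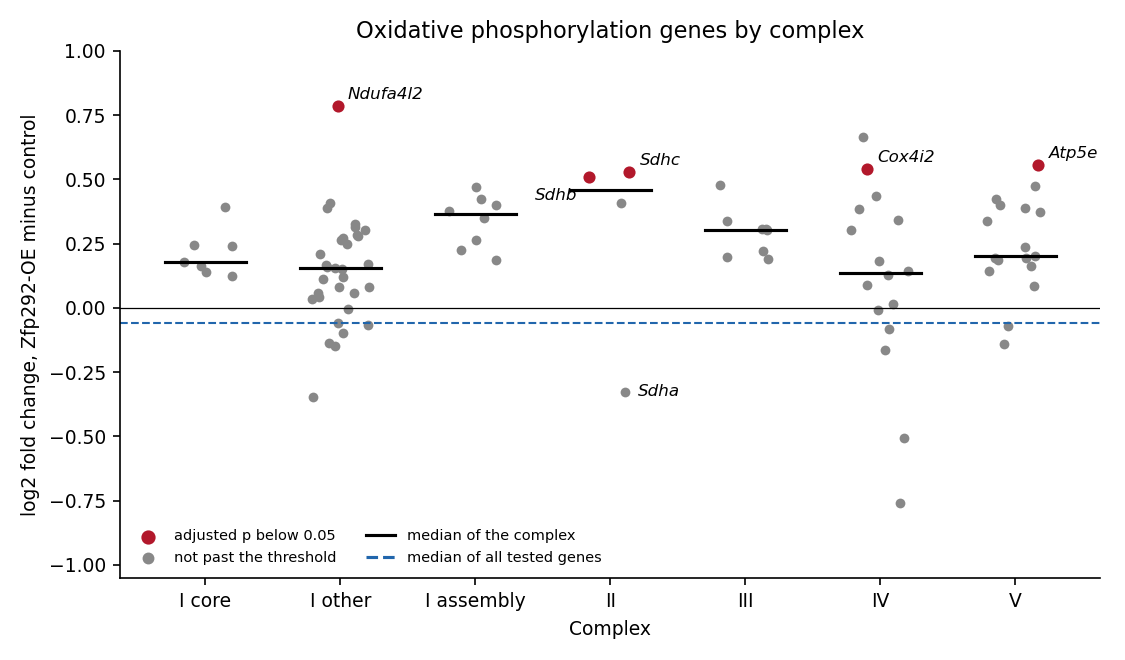
Log2 fold change of each gene (libraries labelled Zfp292-OE minus control) by complex, with called genes in red, the median of each group as a black bar and the median of all tested genes as a dashed line. Most points lie above the dashed line, the 5 called genes lie at 0.51 to 0.79, and Sdha lies at -0.33, below the other genes of complex II.

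For 36 of the 92 genes every library labelled Zfp292-OE was above both controls, and for 0 every one was below. This was 39.1% of members, whereas 24.3% of all tested genes were separated on the higher side and 25.7% on the lower side. By role, genes separated on the higher side numbered 5 of 7 core subunits of complex I, 7 of 32 other complex I subunits, 5 of 8 complex I assembly factors, 3 of 4 genes of complex II, 3 of 8 of complex III, 5 of 16 of complex IV and 8 of 17 of complex V. The median log2 fold changes were 0.18, 0.15, 0.36, 0.46, 0.30, 0.14 and 0.20 in that order. With equal totals they were -0.038, -0.062, 0.15, 0.24, 0.088, -0.081 and -0.013, so that only complex II, complex III and the assembly factors kept a value above 0. After quantile normalization complex III also turned, to -0.038. As a share of all values in the table, the 92 genes took 3.67%, 3.44% and 3.17% in libraries 1, 2 and 3 labelled Zfp292-OE and 3.26% and 3.62% in the control libraries, which overlapped.

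**Figure D2:**
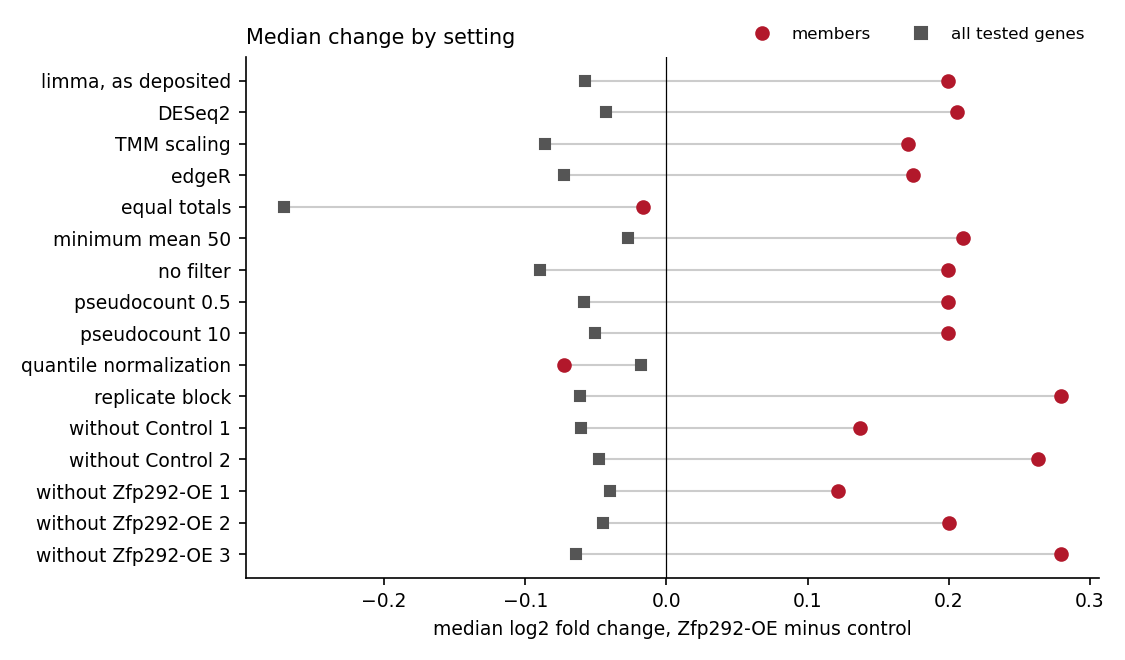
Median log2 fold change of the oxidative phosphorylation genes and of all tested genes (grey squares) under each setting of the analysis, in log2 units of libraries labelled Zfp292-OE minus control. The members' median (red points) lies at 0.20 as deposited, below 0 with equal totals and quantile normalization, and left of all tested genes after quantile normalization alone among these settings.

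Complex II, succinate dehydrogenase, also belongs to the tricarboxylic acid cycle, and all of its subunits are nuclear. Sdhb, its iron-sulfur subunit (chromosome 4, 140961271 to 140979198 in GRCm38.p6), had 129215, 123366 and 110655 normalised reads in libraries labelled Zfp292-OE and 88556 and 81436 in control libraries. Each library labelled Zfp292-OE was above both controls. The rise was 1.42-fold (95% interval 1.15 to 1.76, log2 0.51, SE 0.14, limma adjusted p = 0.033). Sdhc, a membrane anchor subunit (chromosome 1, 171129157 to 171150640), had 45798, 43036 and 39040.1 normalised reads in libraries labelled Zfp292-OE and 30963 and 28038 in control libraries. It did not overlap either, and rose 1.44-fold (log2 0.53, SE 0.14, limma adjusted p = 0.027). Sdhd, the other anchor subunit, had 84791, 80079 and 79335 normalised reads in libraries labelled Zfp292-OE and 67840.2 and 55352 in control libraries. Its groups were also separated, but its log2 fold change of 0.41 (SE 0.14) did not pass in limma (adjusted p = 0.073) and passed in DESeq2 (0.025). The call of Sdhb was lost with equal totals (adjusted p = 0.11), after quantile normalization (0.20), without the filter on low values (0.071) and without control library 1 (0.094), control library 2 (0.19) or library 1 (0.089) or 2 (0.11) labelled Zfp292-OE. The call of Sdhc was lost under the same settings other than the absent filter, at adjusted p values up to 0.27.

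Sdha, the flavoprotein subunit that oxidises succinate (chromosome 13, 74322255 to 74350240), had values on the other side. It had 17053, 20032 and 21168 normalised reads in libraries labelled Zfp292-OE and 28728 and 20462 in control libraries. Control library 1 was the highest, and control library 2 lay within the range of the libraries labelled Zfp292-OE. The log2 fold change was -0.33 (SE 0.18, limma adjusted p = 0.23). After quantile normalization it was -0.63 and passed (0.033), and without control library 1 it was -0.082. In reads per kilobase of transcript, Sdhb stood at 19.2, 15.6 and 13.3 times Sdha in libraries labelled Zfp292-OE and at 7.83 and 10.1 times in control libraries. For Sdhc the same ratio was 2.46, 1.96 and 1.69 in libraries labelled Zfp292-OE and 0.986 and 1.25 in control libraries. For Sdhd it was 11.7, 9.42 and 8.83 in libraries labelled Zfp292-OE and 5.56 and 6.37 in control libraries. All 3 ratios were higher in each library labelled Zfp292-OE than in either control. A ratio within a library is the same under any scaling by 1 factor. It can still move with differences between libraries that go with transcript length, which are described below, and their part in these ratios was not tested. These ratios were chosen after the values were seen and carry no test, and the transcript lengths behind them were 2900 nt for Sdha, 1142 nt for Sdhb, 3171 nt for Sdhc and 1231 nt for Sdhd.

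**Figure D3:**
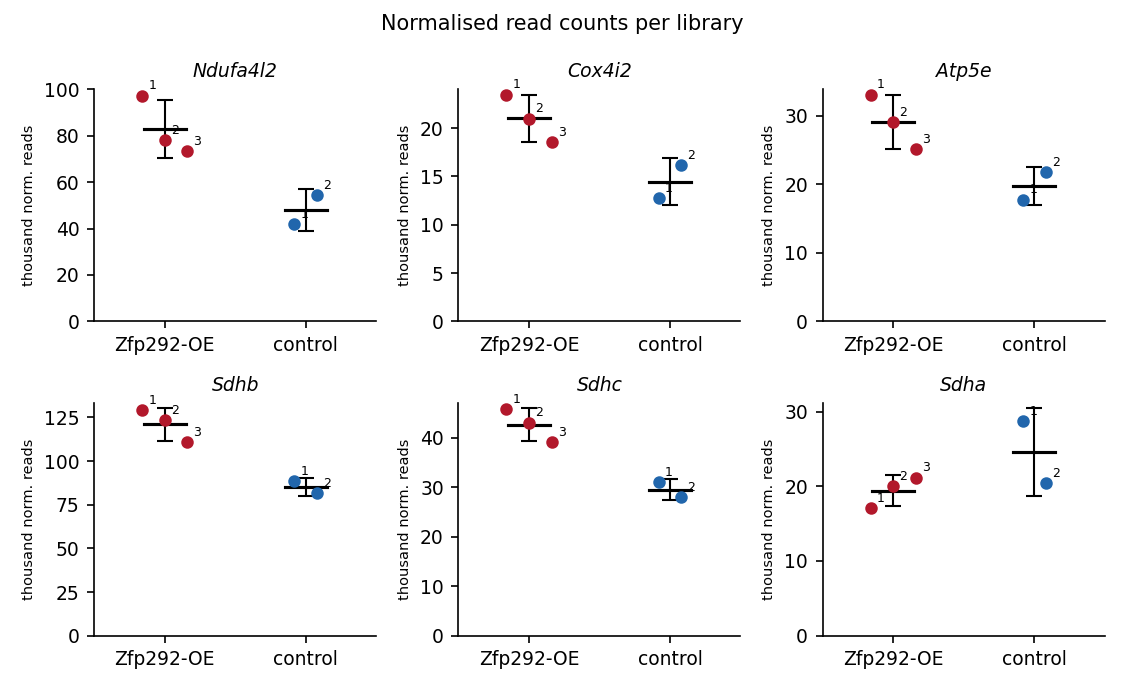
Normalised read counts (in units of 1000) of the 5 called genes and of Sdha in each library, with libraries labelled Zfp292-OE left of control libraries, means as bars and 1 SD as whiskers (n = 3 and 2). For the called genes every point labelled Zfp292-OE lies above both controls, and for Sdha the groups overlap.

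Stretches upstream of the complex II genes and of Atp5e, the called gene of complex V, are printed to set the sequences of genes with positive and negative values side by side, as far as RefSeq (GRCm38.p6) gave them. Each line holds the 250 bases before the annotated start, 5′ to 3′ on the strand of the gene. Capitals mark matches to CCGGAAG, the letters searched for ETS factors such as GABP, and to GCGCATG, those for nuclear respiratory factor 1, on both strands. Both kinds of factor are textbook activators of respiratory chain genes. The stretches are chr4:140961021-140961270 (plus strand) for Sdhb, chr9:50603850-50604099 (minus strand) for Sdhd, chr13:74350241-74350490 (minus strand) for Sdha and chr2:174464102-174464351 (minus strand) for Atp5e.
Sdhb: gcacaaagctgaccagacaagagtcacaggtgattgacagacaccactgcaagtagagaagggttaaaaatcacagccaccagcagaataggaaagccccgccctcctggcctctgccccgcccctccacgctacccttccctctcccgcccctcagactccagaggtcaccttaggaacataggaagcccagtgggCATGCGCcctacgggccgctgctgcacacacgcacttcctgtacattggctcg
Sdhd: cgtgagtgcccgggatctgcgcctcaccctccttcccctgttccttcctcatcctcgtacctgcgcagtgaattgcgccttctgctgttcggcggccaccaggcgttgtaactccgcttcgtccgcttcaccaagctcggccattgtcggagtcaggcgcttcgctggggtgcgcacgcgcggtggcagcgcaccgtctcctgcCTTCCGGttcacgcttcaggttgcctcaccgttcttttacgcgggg
Sdha: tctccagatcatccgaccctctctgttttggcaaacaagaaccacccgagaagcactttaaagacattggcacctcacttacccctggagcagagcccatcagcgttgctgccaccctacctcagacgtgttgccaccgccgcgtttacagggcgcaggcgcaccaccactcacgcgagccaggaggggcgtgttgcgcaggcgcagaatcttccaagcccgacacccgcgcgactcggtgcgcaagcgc
Atp5e: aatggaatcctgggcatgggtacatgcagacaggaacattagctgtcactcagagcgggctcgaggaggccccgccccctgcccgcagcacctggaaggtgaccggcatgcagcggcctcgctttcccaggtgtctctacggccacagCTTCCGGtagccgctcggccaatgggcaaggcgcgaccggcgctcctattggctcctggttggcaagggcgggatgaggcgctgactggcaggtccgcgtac

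In Sdhb there was 1 match to the letters of nuclear respiratory factor 1 and 0 to those of ETS factors. Sdhd and Atp5e each had 1 ETS match and 0 of the other, and Sdha had 0 of both. These few genes do not show how matches go with the direction of a value. Ndufv2 and Atp5pb, for example, had positive values and held neither kind of match. Whether matches go with direction over the members was not tested. Of the 92 genes, 75 had such a stretch in the RefSeq table. The called Ndufa4l2, Cox4i2 and Sdhc were not among these, so no motif was searched in them. ETS letters were found in 13 of these 75 (17.3%), and in 7.05% of all 27025 promoters of that length. Letters of nuclear respiratory factor 1 were found in 11 (14.7%), and in 3.32% of all. A YY1 core (AAGATGG) was found in 0 members and 4.53% of all, a CCAAT box (CCAAT) in 34 (45.3%) and 34.5%, and the core of a hypoxia response element (ACGTG) in 14 (18.7%) and 16.6%. The motifs were counted separately, so a stretch can hold several. Letters at or after the annotated start were not searched, so 0 YY1 matches do not show that these genes lack such letters. A match describes letters and not a bound site. The 27025 promoters were not limited to genes tested here and were not matched to the members in expression or base content. Whether the shares differ from those of other expressed genes was not tested.

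Complex I takes electrons from NADH through core subunits that carry flavin and iron-sulfur clusters, around which accessory subunits sit. None of its 7 nuclear core subunits passed in limma (DESeq2 called 1 higher and 0 lower, edgeR 0 and 0, and 1 were higher and 0 lower at an unadjusted limma p below 0.05). Their log2 fold changes ran from 0.13 to 0.39 as deposited, with a median of -0.038 at equal totals. Ndufv2, an iron-sulfur subunit, had the highest of these. It had 129614, 111072 and 98989 normalised reads in libraries labelled Zfp292-OE and 86217 and 85276 in control libraries, without overlap (log2 fold change 0.39, SE 0.15, limma adjusted p = 0.10). Ndufs8, another iron-sulfur subunit, had 67773, 59614 and 54299 normalised reads in libraries labelled Zfp292-OE and 49592 and 52304 in control libraries. These did not overlap either, and the adjusted p was 0.26 in limma. Ndufs1, the largest of the core subunits, had 12569, 14789 and 16028 normalised reads in libraries labelled Zfp292-OE and 14712 and 11601 in control libraries, which overlapped.

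The 8 assembly factors of the Ndufaf family help to build complex I. None passed in limma (DESeq2 called 1 higher and 0 lower, edgeR 0 and 0, and 4 were higher and 0 lower at an unadjusted limma p below 0.05). Ndufaf7, a methyltransferase of the mitochondrial matrix, came nearest with 13486, 13137 and 14074 normalised reads in libraries labelled Zfp292-OE and 10733 and 8937 in control libraries. The groups were separated by a log2 fold change of 0.47 (SE 0.15, limma adjusted p = 0.054). Ndufaf4 had 15813, 14834 and 12637 normalised reads in libraries labelled Zfp292-OE and 12733 and 8995 in control libraries, where library 3 lay just under control library 1. Ndufaf3 had 18955, 19834 and 16024 normalised reads in libraries labelled Zfp292-OE and 14984 and 17045 in control libraries and overlapped too. Outside the Ndufaf family, 11 further assembly factors were tested. The 1 that rose was Lyrm2, 0 fell and 10 were not past the threshold (Lyrm2 log2 fold change 0.54, limma adjusted p = 0.035, not called by edgeR). Tmem70, which is also known to act in the assembly of ATP synthase, had a value of 0.52 (limma adjusted p = 0.056).

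Among the 32 genes grouped by symbol as other complex I subunits 1 rose, 0 fell and 31 did not pass. Their values ran from -0.35 for Ndufs5 to 0.79 for Ndufa4l2, with 25 above and 7 below 0. Ndufb8, an accessory subunit with the highest counts of this group, had 150409, 126651 and 103906 normalised reads in libraries labelled Zfp292-OE and 114708 and 126756 in control libraries. The spread within each group exceeded the difference between them. Ndufs5 had only 20.9 to 54.8 reads, while its processed copy Ndufs5-ps, left out by the rule, had 43533, 36699 and 32397 in libraries labelled Zfp292-OE and 31122 and 36399 in control libraries. Ndufs5 is therefore uncertain, since reads of near-identical copies can be split in counting. The same holds for Ndufb4 and its copy Ndufb4c.

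Ndufa4l2 had the smallest p of all members. It is a paralogue of Ndufa4 known as a target of hypoxia-inducible factor 1, and Ndufa4, though named for complex I, is now assigned to complex IV. Both genes were kept by their symbols among the other complex I subunits, so the call counted there is that of Ndufa4l2. Ndufa4l2 (chromosome 10, 127509274 to 127517154) had 97212, 78089 and 73513 normalised reads in libraries labelled Zfp292-OE and 41779 and 54543 in control libraries. Every library labelled Zfp292-OE lay above both controls. The mean was 82938 ± 12572 (SD, n = 3) in libraries labelled Zfp292-OE and 48161 ± 9026 (SD, n = 2) in control libraries. This was a 1.72-fold rise (95% interval 1.32 to 2.25, log2 0.79, SE 0.17, limma adjusted p = 0.014). The call held in 12 of 15 alternatives. It was lost after quantile normalization (adjusted p = 0.098), where the log2 fold change was 0.46, and without control library 1 (0.14) or control library 2 (0.12). Ndufa4 had 98839, 85006 and 70727 normalised reads in libraries labelled Zfp292-OE and 88323 and 96799 in control libraries. The groups overlapped, with a log2 fold change of -0.14 (SE 0.16, limma adjusted p = 0.60). Per kilobase of transcript, Ndufa4l2 made up 39.1%, 37.5% and 40.4% of the sum of both in libraries labelled Zfp292-OE and 23.6% and 26.9% in control libraries.

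Cox4i2 was the called gene among those grouped by symbol under complex IV. Subunit 4 of this complex, cytochrome c oxidase, has a common isoform, Cox4i1, and the isoform Cox4i2, known from lung and from cells in low oxygen. Cox4i2 (chromosome 2, 152753916 to 152765039) had 23473, 20969 and 18569 normalised reads in libraries labelled Zfp292-OE and 12749 and 16191 in control libraries. The groups did not overlap. The rise was 1.46-fold (95% interval 1.13 to 1.87, log2 0.54, SE 0.16, limma adjusted p = 0.047). This call held in 5 of 15 alternatives, over which the adjusted p ran from 0.014 to 0.34. It was lost in edgeR (0.070), with TMM (0.054), equal totals (0.19), quantile normalization (0.34) or no filter (0.066), without control library 1 (0.25) or 2 (0.14) and without library 1 (0.13) or 2 (0.11) labelled Zfp292-OE, and with the replicate number as a block (0.0501). Cox4i1 had 138006, 130166 and 117823 normalised reads in libraries labelled Zfp292-OE and 119607 and 139283 in control libraries, a log2 fold change of -0.0076 (SE 0.14). Per kilobase, Cox4i2 made up 15%, 14.3% and 14.1% of both isoforms in libraries labelled Zfp292-OE and 9.97% and 10.8% in control libraries. Both isoform shares were separated between groups, and shares within a library do not move with its scaling factor. Ndufa4l2 and Cox4i2 were themselves called and their partners were not, so these shares are no independent result. Cox6b2 took 3.24%, 3.28% and 3.77% of its sum with Cox6b1 in libraries labelled Zfp292-OE and 1.90% and 2.84% in control libraries. The shares of Cox7a1, Cox6a2 and Cox7b2 overlapped between groups.

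**Figure D4:**
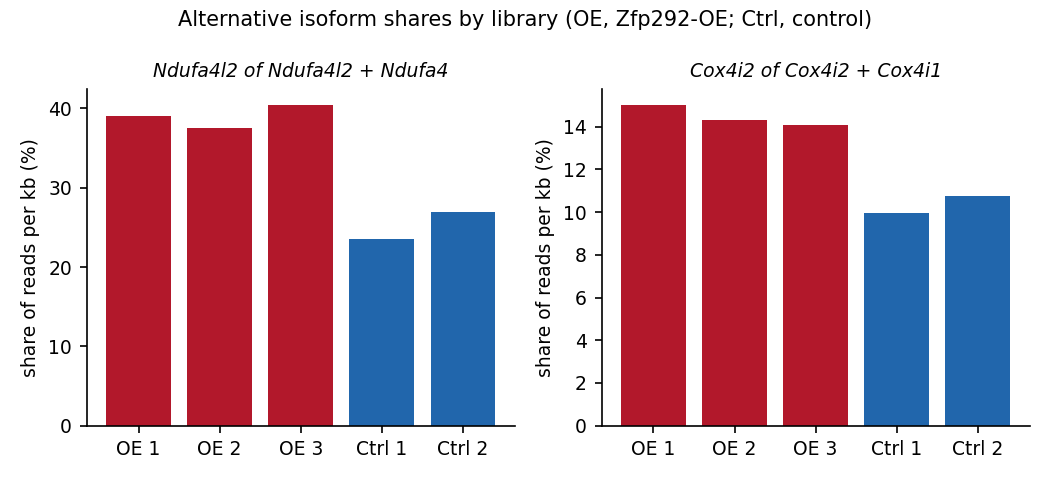
Share of reads per kilobase of transcript taken by each alternative isoform in each library, for Ndufa4l2 with Ndufa4 and for Cox4i2 with Cox4i1. The libraries labelled Zfp292-OE lie at 37.5% to 40.4% and at 14.1% to 15%, above both controls.

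Ndufa4l2 and Cox4i2 are also known in pericytes, the mural cells of small vessels, so markers of those cells were read beside them. The 9 pericyte markers summed to 722 to 944 normalised reads in libraries labelled Zfp292-OE and 2094 to 3594 in control libraries. Of the 8 that could be tested 0 rose, 4 fell and 4 did not pass in limma (DESeq2 called 0 higher and 5 lower, edgeR 0 and 4, and 0 were higher and 5 lower at an unadjusted limma p below 0.05). Rgs5, a defining pericyte marker, had 0, 16 and 2.09 in libraries labelled Zfp292-OE and 1233 and 461 in control libraries. Kcnj8, a potassium channel subunit of the same cells, had 2.28, 0 and 0 in libraries labelled Zfp292-OE and 592 and 43.9 in control libraries. Rgs5 and Kcnj8 were chosen after their values were seen, and the part of pericytes in the levels of Ndufa4l2 and Cox4i2 was not tested.

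The remaining 15 genes of complex IV did not pass in limma, and with Cox4i2 included DESeq2 called 2 and edgeR 0 of the 16. Cox6b2, known as the testis isoform of subunit 6b, had 2521, 2271 and 2191 normalised reads in libraries labelled Zfp292-OE and 1113 and 1930.0 in control libraries, without overlap (log2 fold change 0.66, SE 0.27, limma adjusted p = 0.12). Its common partner Cox6b1 had 94104, 83647 and 70029 normalised reads in libraries labelled Zfp292-OE and 72021 and 82735 in control libraries and overlapped. Isoforms known from heart and skeletal muscle were scarce. Cox7a1 had 172 to 415 reads over the libraries and took 0.947%, 0.489% and 1.16% of the per-kilobase sum with Cox7a2 in libraries labelled Zfp292-OE and 0.557% and 0.896% in control libraries. Cox6a2 had 0 to 24 reads, and the testis isoform Cox7b2 13.6 to 69.8. The 14 muscle markers summed to 8644 to 9845 normalised reads in libraries labelled Zfp292-OE and 5549.6 to 5612 in control libraries, and of the 10 tested 3 rose, 0 fell and 7 did not pass in limma. The common isoforms Cox7a2 (0.14), Cox7b (0.18), Cox6a1 (0.013) and Cox8a (-0.16) had log2 fold changes near 0 and overlapped, and those of the first 3 were below 0 with equal totals and after quantile normalization. Cox7a2l, which joins complexes III and IV in supercomplexes, had 17951, 18138 and 16794 normalised reads in libraries labelled Zfp292-OE and 12861 and 14131 in control libraries. It was separated between groups (log2 fold change 0.39, limma adjusted p = 0.080).

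Complex III passes electrons from ubiquinol to cytochrome c. None of its 8 genes passed in limma (DESeq2 called 1 higher and 0 lower, edgeR 0 and 0, and 3 were higher and 0 lower at an unadjusted limma p below 0.05), and their log2 fold changes ran from 0.19 to 0.48. The core proteins Uqcrc1 and Uqcrc2 and the Rieske iron-sulfur protein Uqcrfs1 were separated between groups, and the 5 smaller subunits overlapped. Uqcrc2 had 34432, 37056 and 40002 normalised reads in libraries labelled Zfp292-OE and 30084 and 23552 in control libraries (log2 fold change 0.48, SE 0.15, limma adjusted p = 0.056). Uqcrc1 had 111653, 125594 and 118640 normalised reads in libraries labelled Zfp292-OE and 104873 and 83982 in control libraries. Uqcrq, a small subunit, had 94026, 79884 and 64065 normalised reads in libraries labelled Zfp292-OE and 64039.9 and 73516 in control libraries, where the lowest library labelled Zfp292-OE stood level with the lower control.

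In complex V, Atp5e, the epsilon subunit in the central stalk of ATP synthase (chromosome 2, 174461075 to 174464101), had 33062, 29029 and 25130.3 normalised reads in libraries labelled Zfp292-OE and 17746 and 21733 in control libraries. The groups were separated, and the rise was 1.47-fold (95% interval 1.14 to 1.89, log2 0.56, SE 0.16, limma adjusted p = 0.042). The call held in 7 of 15 alternatives. It was lost in edgeR (adjusted p = 0.058), with equal totals (0.16), quantile normalization (0.36) or no filter (0.062), without control library 1 (0.24) or 2 (0.16) and without library 1 (0.12) or 2 (0.099) labelled Zfp292-OE. Atp5b, the catalytic beta subunit, had the highest counts of all members, with 238694, 274595 and 280464 normalised reads in libraries labelled Zfp292-OE and 247757 and 202326 in control libraries. Control library 1 lay inside the range of the libraries labelled Zfp292-OE. The gamma subunit of the stalk, Atp5c1, had 140511, 124568 and 120570 normalised reads in libraries labelled Zfp292-OE and 103834 and 94585 in control libraries, separated but not past the threshold (log2 fold change 0.37, limma adjusted p = 0.095). Atp5pb, of the stator that holds the catalytic head in place, had 125222, 113880 and 109876 normalised reads in libraries labelled Zfp292-OE and 91323 and 82010.2 in control libraries. It was separated in the same way (log2 fold change 0.42, limma adjusted p = 0.060). Atp5g1 encodes the c subunit of the rotor ring, as do Atp5g2 and Atp5g3, and had 44569.9, 37354 and 22372 normalised reads in libraries labelled Zfp292-OE and 24020.4 and 27129.6 in control libraries. Library 3 labelled Zfp292-OE lay below both controls while libraries 1 and 2 lay above them.

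Within each group, members varied together from library to library. Of the 92 genes, 79 were highest in library 1 among those labelled Zfp292-OE, and 79 were lowest in library 3. The median deviation of the members from the control mean was 0.38, 0.21 and 0.029 on the log2 scale in libraries 1, 2 and 3 labelled Zfp292-OE and -0.072 and 0.072 in control libraries 1 and 2. This pattern went with transcript length. Among the 57 members with transcripts under 1000 nt, 57 were higher in library 1 than in library 3 labelled Zfp292-OE, and 53 higher in control library 2 than in control library 1. Among the 34 longer ones these counts were 25 and 12. Spearman's rho between length and the log2 difference was -0.61 for libraries 1 minus 3 labelled Zfp292-OE and -0.60 for control libraries 2 minus 1. These values are across 91 genes that share libraries and are no independent replicates. Across 14990 tested genes with a length they were -0.059 and 0.15. Short transcripts at large showed the same directions as short members: of all 1013 tested genes under 1000 nt, 802 were higher in library 1 than in library 3 labelled Zfp292-OE (median 0.32) and 698 higher in control library 2 than in control library 1 (median 0.14).

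**Figure D5:**
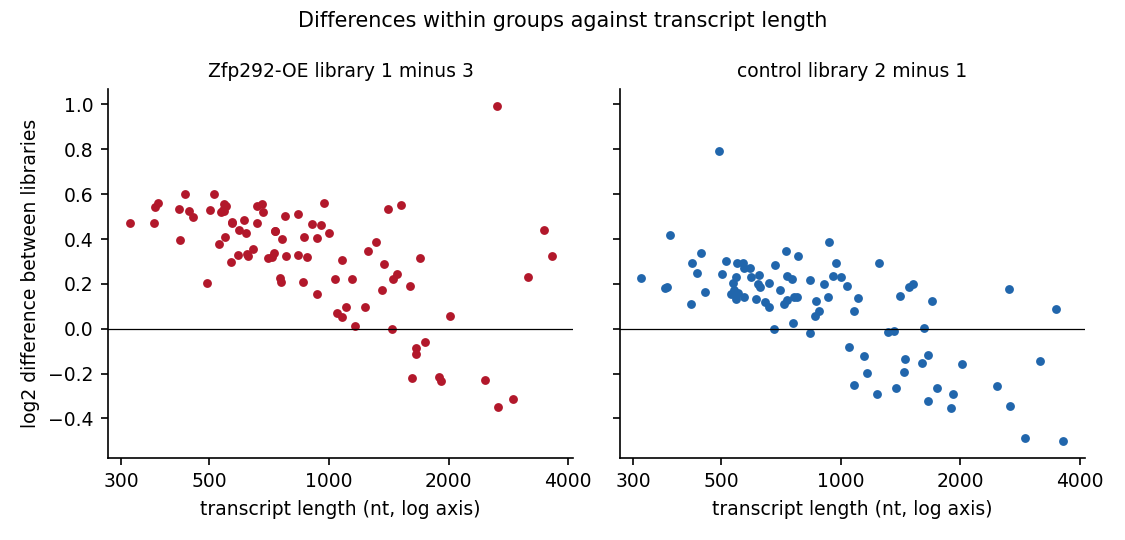
Log2 difference between libraries of 1 group against transcript length in nt (log axis), for the 87 members with a mean of at least 1000, in libraries 1 minus 3 labelled Zfp292-OE (left) and control libraries 2 minus 1 (right). Most transcripts under 1000 nt lie above 0 in both panels, Atp5g1 is the highest point on the left and Cox6b2 on the right.

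Between groups, the longer members were separated on the higher side in 23 of 34 cases and the shorter ones in 13 of 57. Among all tested genes the longer ones were so separated in 3383 of 13977 cases and the shorter ones in 365 of 1013. Median log2 fold changes were 0.32 for longer and 0.16 for shorter members, and -0.073 and 0.21 for all tested genes of those lengths. The called Sdhb and Sdhc have transcripts over 1000 nt, and the called Ndufa4l2, Cox4i2 and Atp5e shorter ones. The part of transcript length in the group difference was not tested.

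Other genes of the same pathways were read as lists that share a few genes. Of all tested genes limma called 10% higher and 7.38% lower, DESeq2 14.2% higher, edgeR 8.28% higher. Limma called 8.70% of complex IV assembly factors and 7.69% of cytochrome c and ubiquinone genes. It called 30.8% of the tricarboxylic acid cycle, 18.2% of pyruvate entry and 27.8% of biogenesis regulators. The shares were 28.6% for mitochondrial ribosomal proteins, 29.2% for import translocases and 33.3% for ADP/ATP and phosphate carriers, against 17.4% of all tested genes. Of 23 tested assembly factors of complex IV, 2 rose, 0 fell and 21 did not pass in limma (DESeq2 called 3 higher and 0 lower, edgeR 2 and 0, and 6 were higher and 0 lower at an unadjusted limma p below 0.05). These were Cmc2 (log2 fold change 0.95, limma adjusted p = 0.019) and Fastkd2, an RNA-binding protein of mitochondria (0.75, adjusted p = 0.021). The 4 assembly factors of complex II and the 6 of complex III had 0 calls in limma. Of the complex II factors, 1 was higher and 0 lower at an unadjusted p below 0.05, and DESeq2 called 1 and edgeR 0. Of the complex III factors, 1 was higher and 1 lower at that level, and DESeq2 and edgeR called 0. Sdhaf3 had a value of 0.53 and Sdhaf2 of 0.19, Ttc19 of -0.52 and Uqcc1 of 0.40. Of 4 assembly factors and regulators of ATP synthase 1 rose, 0 fell and 3 did not pass. Tmem242, known to act in ATP synthase assembly, rose by 0.94 (adjusted p = 0.0026), and Atpif1, the inhibitor of its reverse reaction, had 0.32. Among 13 genes of cytochrome c and ubiquinone synthesis 0 rose and 1 fell in limma, and DESeq2 called 1 higher and 1 lower. Coq8b fell by 0.62 on the log2 scale (adjusted p = 0.044) and Coq3 had 0.61. Stoml2, a membrane scaffold, was the 1 gene of 6 in the supercomplex list that rose (0.72, adjusted p = 0.0079), and Higd1a had 0.47.

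In the tricarboxylic acid cycle 4 of 13 genes rose, 0 fell and 9 did not pass in limma (DESeq2 called 5 higher and 2 lower, edgeR 2 and 0, and 5 were higher and 2 lower at an unadjusted limma p below 0.05). The median was 0.26. With equal totals limma called 2 higher and 2 lower (median 0.046), and after quantile normalization 2 higher and 1 lower (median -0.046). The succinyl-CoA ligase subunits Suclg2 and Sucla2, whose product succinate is the substrate of complex II, rose by 1.13 and 0.87 on the log2 scale (limma adjusted p = 0.0044 and 0.0076). Sucla2 had 49377, 44483 and 46101 normalised reads in libraries labelled Zfp292-OE and 30449.5 and 21392 in control libraries. Of 11 genes of pyruvate entry 2 rose, 0 fell and 9 did not pass (DESeq2 called 2 higher and 0 lower, edgeR 2 and 0, and 3 were higher and 1 lower at an unadjusted limma p below 0.05). These were the kinase Pdk3, which inhibits pyruvate dehydrogenase (0.88), and the carrier subunit Mpc1 (0.68). The list median was 0.19. With equal totals limma called 1 higher and 1 lower (median -0.028), and after quantile normalization 1 higher and 0 lower (median 0.16).

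Regulators of mitochondrial biogenesis went both ways, with 4 of 18 higher, 1 lower and 13 not past the threshold in limma (median -0.061). DESeq2 called 5 higher and 2 lower, and edgeR 3 and 1. At an unadjusted limma p below 0.05, 5 were higher and 4 lower. With equal totals limma called 3 higher and 3 lower (median -0.28), and after quantile normalization 3 higher and 1 lower (median 0.041). Tfam, which packages and transcribes mitochondrial DNA, had 16509, 15365 and 14752 normalised reads in libraries labelled Zfp292-OE and 7739 and 7741 in control libraries. The groups stood far apart (log2 fold change 1.0, SE 0.14, limma adjusted p = 0.0016). Gabpb1, a subunit of the ETS factor GABP, had 11026, 10994 and 10274 normalised reads in libraries labelled Zfp292-OE and 5762 and 4923 in control libraries (log2 fold change 1.01, adjusted p = 0.0024). Its partner Gabpa rose by 0.59 and Nrf1, which encodes nuclear respiratory factor 1, by 0.83. The coactivator Ppargc1b fell, with 75.3, 35.7 and 54.4 normalised reads in libraries labelled Zfp292-OE and 255 and 438 in control libraries (log2 fold change -2.64, limma adjusted p = 0.025). Without the filter on low values this call was lost, and limma called 4 regulators higher and 0 lower.

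Of 77 mitochondrial ribosomal protein genes, which serve the translation of the mitochondrially encoded subunits, 22 rose, 0 fell and 55 did not pass in limma (DESeq2 called 40 higher and 1 lower, edgeR 16 and 0, and 47 were higher and 1 lower at an unadjusted limma p below 0.05). Their median was 0.41, against -0.058 for all tested genes. With equal totals limma called 5 higher and 1 lower (median 0.20), and after quantile normalization 4 higher and 1 lower (median 0.18). Mrpl35 and Mrps9 rose by 0.82 and 0.84 on the log2 scale. Of 24 translocases of protein import 7 rose, 0 fell and 17 did not pass (DESeq2 called 9 higher and 0 lower, edgeR 4 and 0, and 10 were higher and 0 lower at an unadjusted limma p below 0.05), with Timm8a1 (0.87) and Timm17a (0.71) first by p and a median of 0.24. With equal totals limma called 4 higher and 0 lower (median 0.024), and after quantile normalization 1 higher and 0 lower (median 0.094). Of 9 genes that move ADP, ATP and phosphate 2 rose, 1 fell and 6 did not pass (median 0.10). With equal totals limma called 0 higher and 2 lower (median -0.11), and after quantile normalization 0 higher and 2 lower (median -0.13). The outer membrane channel Vdac3 rose by 0.60. Ckmt1, the mitochondrial creatine kinase, had 1284, 1108 and 599 normalised reads in libraries labelled Zfp292-OE and 3391 and 3036 in control libraries and fell by 1.76 on the log2 scale (limma adjusted p = 0.0068). The 4 tested uncoupling genes had 0 calls in limma, edgeR and DESeq2 and 0 at an unadjusted p below 0.05, with Slc25a27 at -0.39 and Ucp1 at 0 to 45.8 reads. Beside all these lists, the rod markers were lower and the mitotic markers higher in each library labelled Zfp292-OE than in either control, by their sums given above, and their part in these results was not tested.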

How the data were processed

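RNA was sequenced in 5 libraries, 3 labelled Zfp292-OE and 2 control. A SMARTER kit and 1.3 µg of total RNA per library were used, per the labels. The submitters' processing notes name the builds GRCm38 and mm10. How reads were aligned, counted (strand included) and scaled is not given in the sources used here. The deposited values are normalised signals, each a read count over a factor particular to its library: 100% of values were whole multiples of the value of a read within a tolerance of 1e-06. The table held 0 columns of other samples.

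Genes with a mean of at least 10 were tested with limma 3.58.1 (trend, R 4.3.3) on log2(value + 1), as Zfp292-OE minus control by label, with Benjamini-Hochberg adjustment over 16316 genes and a threshold of 0.05. Fold changes are on that scale and understate changes of low genes. The fit was tested on simulated data. Alternatives were edgeR 4.0.16 and DESeq2 1.42.0 on recovered reads, pseudocounts of 0.5 and 10, no filter, a minimum mean of 50, TMM, equal totals, quantile normalization, the replicate number as a block, and each library left out in turn. Coordinates and promoters are from RefSeq (GRCm38.p6), transcript lengths the median of coding transcripts with a RefSeq match in GENCODE M21. For genes without such a match the length of the longest coding transcript was taken. Tables used pandas 2.3.3 (Python 3.11.15), plots matplotlib 3.10.9.

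Members and lists were chosen with earlier results of these data known. The rule for named genes took Zfp292, every called member, the 2 members of each role with the highest mean, tissue-restricted isoforms with their common partners, and the 2 genes of each pathway list with the smallest p. Sdha, Ndufaf7, Ndufs1, Ndufs5, Ndufs5-ps, Ndufb4, Ndufb4c, Uqcrc2, Uqcrfs1, Cox7a2l, Atp5pb, Atp5g1, Atp5g2, Atp5g3, Atp5j, Gabpa, Nrf1, Ppargc1b, Rgs5 and Kcnj8 were named after their values were seen.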

Additional observations from a re-analysis of the deposited data

How the results depend on the processing

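The count of members called higher, 5 as reported, was 13 with DESeq2, 3 with edgeR, 2 without the filter, 1 with equal totals and 0 after quantile normalization, where 1 was called lower, and it ran from 0 to 8 when a library was left out. With 2 controls, leaving out 1 leaves an arm of 1 library that is assumed to vary like the other group. The members' median log2 fold change, 0.20, turned to -0.016 with equal totals and -0.073 after quantile normalization, and ran from 0.12 to 0.28 with libraries left out. The causes were not tested. The replicate block gave 6 members called higher, 0 lower and a median of 0.28. Of the 6, 4 were among the 5 as reported (Cox4i2 was lost, Atp5g1 and Atp5j gained). Number 3 occurs only among libraries labelled Zfp292-OE, so under the block library 3 did not enter the group difference. Fold changes under the block are therefore those without library 3, where the median was also 0.28. Same-numbered samples did not deviate together (correlations -0.039 and -0.027). With 2 controls the deviations of one mirror those of the other, so these correlations cannot tell whether same-numbered samples were handled together. The labels do not say. Under the block Cox4i1 was 0.054, Cox6a2 0.53, Cox7b2 0.015 and Zfp292 -0.011, the opposite sign to that reported. The sign also turned with equal totals for Cox6a1 (-0.20), Cox6b1 (-0.13), Cox7a2 (-0.074), Cox7b (-0.035), Ndufaf3 (-0.029), Ndufb8 (-0.16), Uqcrq (-0.024), Sdhaf2 (-0.030) and Zfp292 (-0.17). After quantile normalization it turned for Cox6a1 (-0.27), Cox6a2 (0.39), Cox6b1 (-0.21), Cox7a2 (-0.20), Cox7b (-0.14), Cox7b2 (0.11), Ndufaf3 (-0.097), Ndufb8 (-0.19), Ndufs8 (-0.091), Uqcrq (-0.11), Sdhaf2 (-0.050) and Zfp292 (-0.21). For Cox6a1 it turned with TMM (-0.015) and edgeR (-0.006). With a library left out, values ran across 0 for Cox4i1 (-0.12 to 0.10), Cox6a1 (-0.089 to 0.15), Cox6a2 (-2.07 to 0.53), Cox6b1 (-0.013 to 0.20), Cox7a1 (-0.10 to 0.79), Cox7b2 (-1.24 to 0.23), Ndufb8 (-0.072 to 0.19), Sdhaf2 (-0.053 to 0.43) and Zfp292 (-0.033 to 0.12). A tally covered the 55 genes of the naming rule under all alternatives. There 670 values kept direction and side of the threshold, 95 lost the call, 12 gained it and 43 turned. Genes named after their values were seen are neither in this tally nor among the sign changes listed here. Few members had low counts: Cox6a2, Cox7b2 and Ndufs5 had under 100 reads in each library. For Ndufs5, reads may have been counted under its copy Ndufs5-ps instead.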
